A study of Homo sapiens with 9 samples.

Results

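The collagen genes of a human colorectal cancer cell line were compared between untreated cells and 2 stress-tolerant lines derived from them. Members were all protein-coding genes whose symbol reads COL, a number, A and a number, found by matching the Ensembl identifiers of the count tables to gene symbols. This gave 44 genes of 36018, and 28 of the 44 passed a filter on low counts and were tested, with 17902 genes tested in all. The cells were labelled HCT-15, an established human colorectal adenocarcinoma line, and wild type, and each group had 3 mRNA sequencing libraries. The control group was untreated. The CoCl2-tolerant line was grown in rising concentrations of cobalt chloride, a salt that mimics hypoxia, until the cells tolerated it. The low-glucose-tolerant line was obtained in the same way under glucose limitation. Cells of every group were kept in RPMI with fetal bovine serum. The labels give no concentration, no duration and no statement on whether the agent was present at harvest. Each tolerant group is a single derived line, and nothing says that its libraries came from separate cultures, so the p-values speak only to how far these libraries differ among themselves, which can be technical. The study's title concerns persistent endoplasmic reticulum (ER) stress, senescence and chemotherapy.

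Collagens are secreted proteins built from chains that wind into a triple helix in the ER, where prolines and lysines are hydroxylated and chaperones hold the chains until they fold. Fibrillar collagens such as types I, III and V assemble into rope-like fibrils, mostly made by fibroblasts and bone cells. Network collagens such as type IV form the sheet of the basement membrane under epithelia, and type VII forms the anchoring fibrils that tie that sheet to the tissue below. Fibril-associated collagens (FACITs) decorate fibrils, type VI makes beaded filaments, and transmembrane collagens stay in the cell membrane.

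Depth ranged from 25178615 to 32674687 counts per library. The labelled cell type was checked against marker lists, in CPM (read counts scaled to the depth of the library). Of 10 epithelial markers, EPCAM, CDH1, KRT8, KRT18 and KRT19 were above 1 CPM in every library, whereas the intestinal markers KRT20, CDX1, CDX2, VIL1 and CDH17 stayed under 1 CPM in every library. The listed intestinal markers therefore do not bear out the labelled tissue, and the identity of the line was not tested. The summed epithelial level was 1367 to 1402 CPM in control, 1381 to 1677 CPM in CoCl2-tolerant and 2502 to 3410 CPM in low-glucose-tolerant libraries. Members of that list also went the other way. CDH1, the adhesion molecule E-cadherin, had 17.4 to 18.3 CPM in control, 1.26 to 1.52 CPM in CoCl2-tolerant and 6.88 to 9.77 CPM in low-glucose-tolerant libraries, and fell 12.6-fold and 2.19-fold (edgeR adjusted p = 3.38e-09 and 5.15e-06). EPCAM, an epithelial surface protein, had 51.8 to 58.0 CPM in control and 19.8 to 23.8 CPM in CoCl2-tolerant libraries, and fell 2.51-fold there (edgeR adjusted p = 2.95e-05). In low-glucose-tolerant libraries EPCAM had 39.7 to 67.7 CPM, which overlapped control (edgeR adjusted p = 0.889). Of 10 fibroblast markers that are not collagens, DCN, LUM, PDGFRA, FAP and POSTN were under 1 CPM in every library. The summed fibroblast marker level was 935 to 978 CPM in control, 553 to 661 CPM in CoCl2-tolerant and 233 to 294 CPM in low-glucose-tolerant libraries. THY1 and TAGLN carried most of that difference. ACTA2 went the other way, from 10.4 to 11.6 CPM in control to 39.0 to 55.3 CPM in low-glucose-tolerant libraries. DCN also rose there, from 4 counts over the control libraries to 54. It passed the low-count filter only through the low-glucose-tolerant libraries, so its rise was built into its being tested. Of the 6 tested fibroblast markers, 1 rose and 3 fell in CoCl2-tolerant cells (all tested genes: 17.9% and 18.2%). In low-glucose-tolerant cells 2 rose, DCN among them, and 3 fell (all tested genes: 34.6% each way). The part of these markers in the collagen results was not tested. In bulk RNA, fewer cells of a kind and less RNA per cell cannot be told apart.

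Collagen transcripts made up 0.902%, 0.950% and 0.904% of all gene counts in the control libraries. The share was 0.536%, 0.498% and 0.511% in CoCl2-tolerant libraries and 0.188%, 0.228% and 0.196% in low-glucose-tolerant libraries. The groups did not overlap, and the means fell from 0.919% ± 0.0269 (SD, n = 3) to 0.515% ± 0.0194 and 0.204% ± 0.0212. The exact two-sided permutation test gave p = 0.10 for each pair of groups, the smallest value that 3 libraries against 3 can give. The composition moved as well. COL1A1 held 20.7% of collagen counts in control, 4.95% in CoCl2-tolerant and 1.01% in low-glucose-tolerant libraries on average. COL4A2, a basement membrane chain, held 27.5%, 33.4% and 34.0%, although its own level fell in both lines. COL18A1, the parent chain of endostatin, held 3.91%, 7.33% and 23.1%. Without COL1A1, the difference between CoCl2-tolerant and control shares was -0.239 percentage points in place of -0.404.

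**Figure D1:**
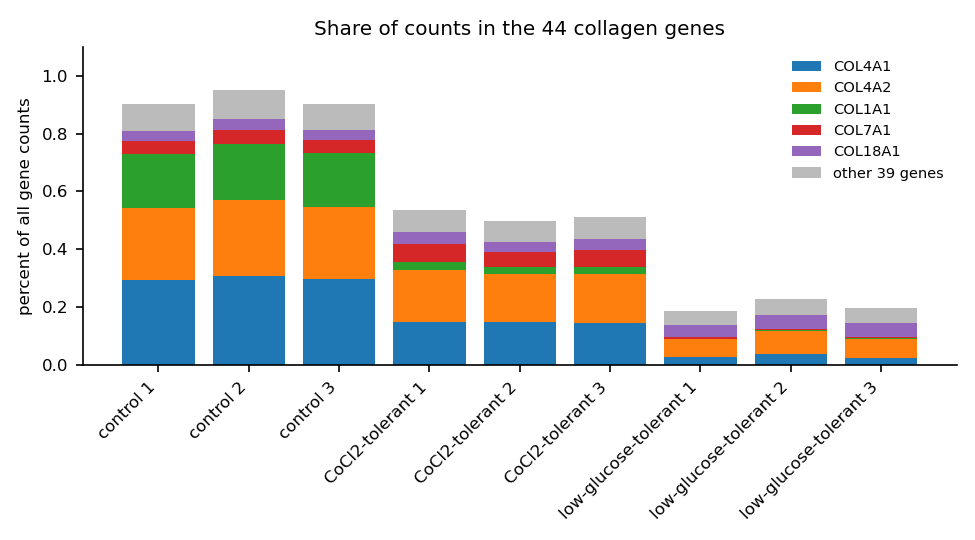
Stacked bars give the percent of all gene counts that fell in the 44 collagen genes in each of the 9 libraries, split into 5 genes and the remaining 39. The control libraries reach 0.902% to 0.950%, the low-glucose-tolerant libraries 0.188% to 0.228%, and the COL1A1 segment is visible in control and thin or absent in the tolerant lines.

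Each gene was tested with the quasi-likelihood F test of edgeR, adjusted over all genes tested by the Benjamini-Hochberg method, and called at an adjusted p under 0.05. In CoCl2-tolerant cells 5 of the 28 tested collagen genes rose and 14 fell, where 17.9% of all tested genes rose and 18.2% fell. Their median log2 fold change was -0.66, against 0.01 for all tested genes. Of the 14, 10 fell at least 2-fold, a class that holds 6.49% of all tested genes. COL9A2 and COL20A1 are among the 10 and did not reach the cutoff of the low-count filter in every group. In low-glucose-tolerant cells 8 rose and 15 fell, with 34.6% of all tested genes called in each direction. The median there was -0.89 against -0.01, and 13 fell at least 2-fold, against 21.0% of all tested genes. COL9A2, COL20A1 and COL24A1, which did not reach that cutoff in every group, are among the 13. Between the tolerant lines, 12 collagen genes were higher in CoCl2-tolerant cells and 9 in low-glucose-tolerant cells, with 31.9% and 32.0% of all tested genes called in these directions. Libraries of a comparison did not overlap for 20 of the 28 genes in CoCl2-tolerant and 24 in low-glucose-tolerant cells against control, where this held for 57.2% and 73.3% of all tested genes. Between the lines it held for 20 of the 28 and 63.1% of all tested genes. Both comparisons against control share the same control libraries, so their values are given side by side and not as independent results. Leaving out control replicate 1, control replicate 3 or CoCl2-tolerant replicate 1 lowered the 5 rises to 3. The 8 rises fell to 5 without control replicate 1.

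**Figure D2:**
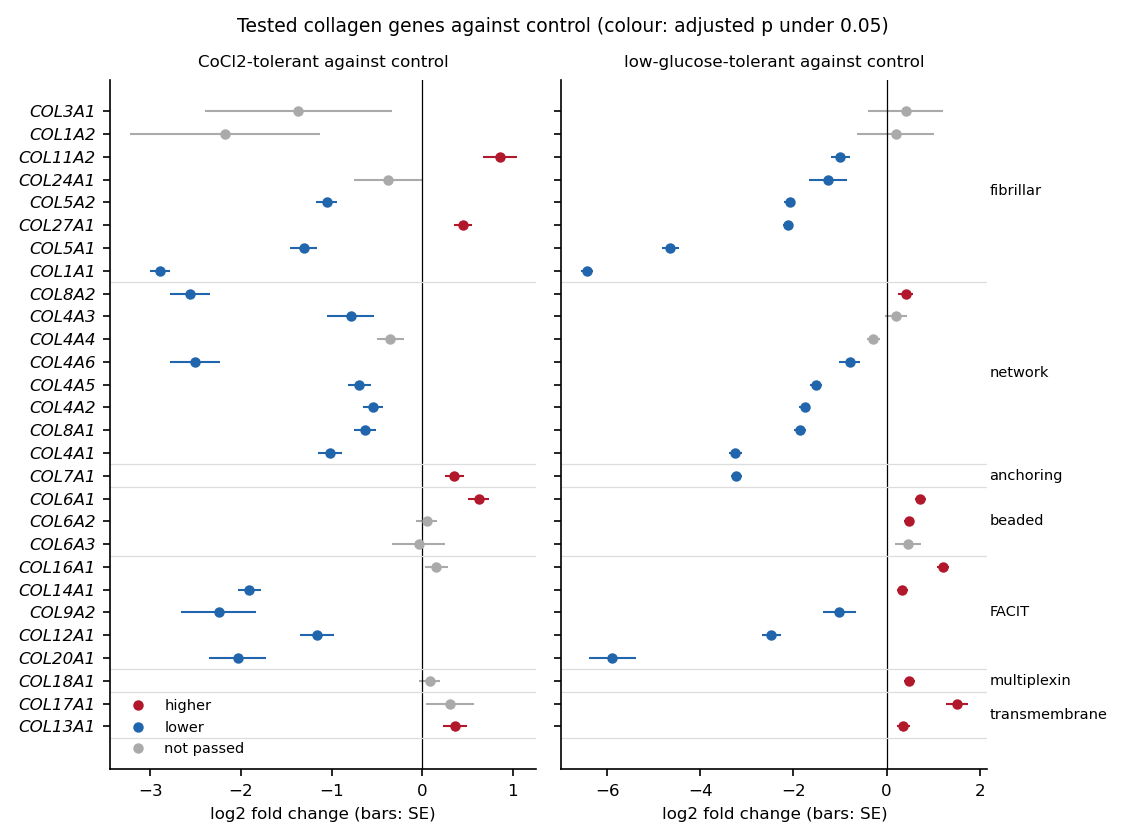
Points give the log2 fold change of each of the 28 tested collagen genes against control, with its standard error, for CoCl2-tolerant (left) and low-glucose-tolerant cells (right), grouped by structural class; colour marks genes that rose, fell or did not pass. COL1A1 has the lowest point in both panels, at -2.89 and -6.43, and the wide bars of COL1A2 and COL3A1 mark genes with few and uneven counts.

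The filter asked for about 10 counts in a library of median size, a cutoff of 0.333 CPM, in at least 3 libraries. For 23 genes every library of all 3 groups reached that cutoff. For COL1A2, COL3A1, COL9A2, COL20A1 and COL24A1 this held in fewer groups, so a difference between libraries was built into their passing. The counts and medians given for the collagen genes and their classes include them, so they are no support for a fall. The other 16 genes were not tested and had 1 to 52 counts summed over the 9 libraries, at most 0.559 CPM in any library. They were the fibrillar COL2A1, COL5A3 and COL11A1, the hexagonal network gene COL10A1, the beaded filament genes COL6A5 and COL6A6, the FACIT genes COL9A1, COL9A3, COL19A1, COL21A1 and COL22A1, the transmembrane COL23A1 and COL25A1, and COL15A1, COL26A1 and COL28A1. Among the tested genes, 17 had a mean of at least 5 CPM in some group.

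Levels of different genes were compared as CPM per kilobase of the longest protein-coding transcript. In control cells COL4A1 led at 442, followed by COL4A2 at 379 and COL1A1 at 276 CPM per kb, then COL18A1 at 53.1, COL7A1 at 48.1 and COL6A2 at 45.2. No neighbours among the first 12 genes in that order overlapped between control libraries. In CoCl2-tolerant cells COL4A2 at 259.9 CPM per kb stood above COL4A1 at 218, and COL1A1 at 37.2 came after COL7A1, COL18A1 and COL6A2. COL7A1, COL18A1 and COL6A2, at 61.5, 56.3 and 46.7, overlapped with their neighbours there. In low-glucose-tolerant cells COL4A2 led at 111.8 CPM per kb, and COL18A1 at 74.3 and COL6A2 at 63.1 came next and overlapped. COL1A1 was at rank 12 there with 3.19 CPM per kb and overlapped with COL16A1, a FACIT, at 3.58.

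**Figure D3:**
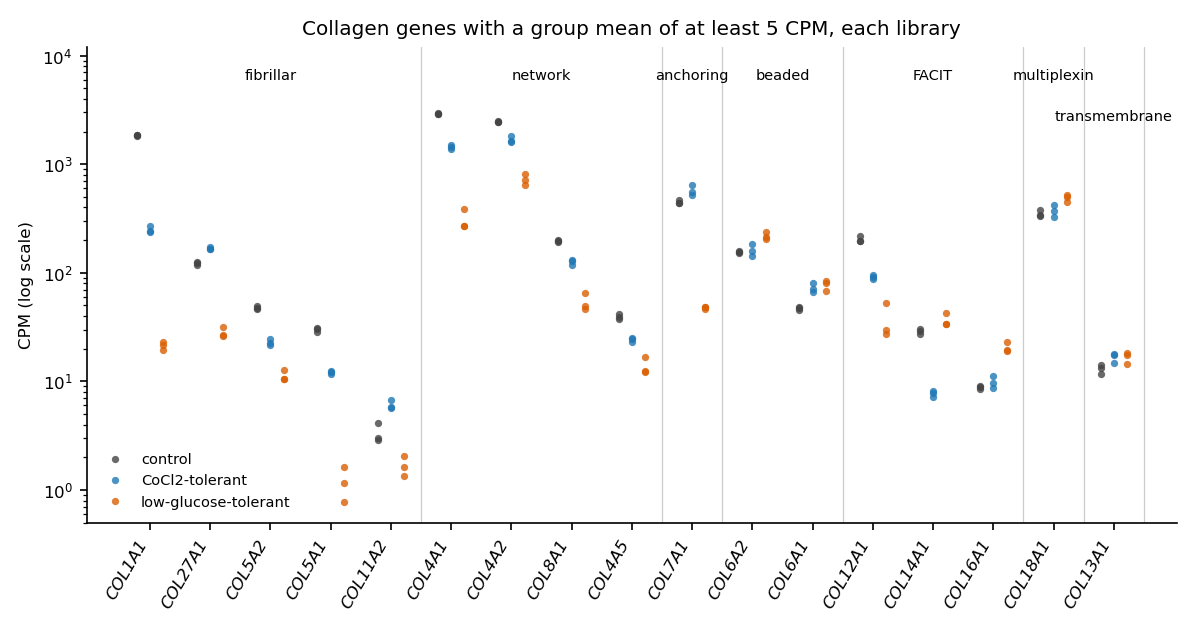
Each point is the CPM (log axis) of a collagen gene in one library, for the 17 genes with a mean of at least 5 CPM in some group; colours mark the groups and vertical lines separate the structural classes. COL1A1 drops from 1823 to 1871 CPM in control to 19.5 to 23.2 CPM in low-glucose-tolerant libraries, while COL6A1, COL16A1 and COL18A1 lie above control there.

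COL1A1 encodes the main chain of type I collagen and lies on the minus strand at chr17:50183289-50201632 (GRCh38). It measured 1823, 1871 and 1870.5 CPM in the control libraries. The CoCl2-tolerant libraries held 270.0, 240.5 and 239.9 CPM, and the low-glucose-tolerant libraries 19.5, 21.7 and 23.2 CPM. The 3 groups were far apart and did not overlap. COL1A1 fell 7.42-fold in CoCl2-tolerant cells, by 2.89 ± 0.11 (SE) on the log2 scale (edgeR adjusted p = 5.97e-10, n = 3 per group). The fall in low-glucose-tolerant cells was 86.4-fold, a log2 change of -6.43 ± 0.13 (edgeR adjusted p = 4.44e-13), in a comparison where 3.16% of all tested genes fell at least 8-fold. Between the tolerant lines the level was 11.7-fold higher in CoCl2-tolerant cells (edgeR adjusted p = 2.57e-11). The 32 tested protein-coding genes within 1 Mb had a median log2 change of -0.08 in CoCl2-tolerant and 0.03 in low-glucose-tolerant cells.

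Type I collagen normally pairs COL1A1 chains with a chain from COL1A2, but COL1A2 (chr7:94394561-94431232, plus strand) was near the detection limit. It had 76, 67 and 14 counts in the control libraries, 15, 6 and 8 in the CoCl2-tolerant and 4, 9 and 144 in the low-glucose-tolerant libraries. Low-glucose-tolerant replicate 3 therefore stood alone at 5.21 CPM, where the other two had 0.136 and 0.308 CPM. COL3A1, which encodes the fibrillar chain of soft tissues, followed the same libraries with 14, 13 and 1 counts in control, 3, 4 and 2 in CoCl2-tolerant and 2, 3 and 28 in low-glucose-tolerant libraries. Neither gene passed against control in the test over all 9 libraries. In CoCl2-tolerant cells the COL1A2 difference was -2.18 ± 1.05 (SE) on the log2 scale (edgeR adjusted p = 0.121). It passed with only the groups compared (edgeR adjusted p = 0.00847), without the filter (5.47e-10) and without low-glucose-tolerant replicate 3 (0.00837). The COL3A1 difference there was -1.37 ± 1.03 (SE) (edgeR adjusted p = 0.324). For COL1A2 the low-glucose-tolerant difference was 0.19 ± 0.82 (SE) on the log2 scale (edgeR adjusted p = 0.847). Without low-glucose-tolerant replicate 3 it was -2.84 and passed (edgeR adjusted p = 0.00307). For COL3A1 the same omission moved the difference from 0.41 to -1.71 (edgeR adjusted p = 0.0962). Per kilobase, COL1A1 exceeded COL1A2 between 361-fold and 3384-fold in every control and CoCl2-tolerant library, and by 115, 56.6 and 3.58-fold in the low-glucose-tolerant libraries.

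Type V collagen co-assembles with type I and sets fibril width. COL5A1 (chr9:134641774-134844843, plus strand) measured 30.3, 31.1 and 28.5 CPM in control, 12.4, 12.1 and 11.7 CPM in CoCl2-tolerant and 0.782, 1.64 and 1.16 CPM in low-glucose-tolerant libraries. It fell 2.48-fold in CoCl2-tolerant cells (edgeR adjusted p = 1.38e-05) and 25.0-fold in low-glucose-tolerant cells (edgeR adjusted p = 9.3e-11). Of 9 tested protein-coding genes within 1 Mb of COL5A1, 8 rose and none fell in low-glucose-tolerant cells, with a median log2 change of 0.80. Of all tested genes, 34.6% were called each way there. Neighbours of other falling collagen genes moved otherwise, as given below, and a link between neighbours and members was not tested. Its partner COL5A2 held 49.4, 47.1 and 46.1 CPM in control, 24.5, 22.8 and 21.5 CPM in CoCl2-tolerant and 10.5, 12.7 and 10.5 CPM in low-glucose-tolerant libraries. That was a fall of 2.08-fold and 4.23-fold (edgeR adjusted p = 8.57e-06 and 2.14e-09). The 3 groups did not overlap for either type V chain.

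The other fibrillar genes did not all follow. COL27A1, a fibrillar gene best known from cartilage, measured 119, 123 and 125 CPM in control and 173, 165 and 164 CPM in CoCl2-tolerant libraries. In the low-glucose-tolerant libraries it held 26.4, 31.5 and 26.6 CPM. It rose 1.37-fold in the former (edgeR adjusted p = 0.0034) and fell 4.34-fold in the latter (edgeR adjusted p = 6.54e-10). COL11A2, another cartilage fibril chain, was low throughout but moved the same way. It held 2.86, 4.17 and 2.99 CPM in control, 6.70, 5.85 and 5.69 CPM in CoCl2-tolerant and 2.07, 1.34 and 1.63 CPM in low-glucose-tolerant libraries, with log2 changes of 0.86 ± 0.19 and -0.99 ± 0.21 (SE). COL24A1 stayed at or under 1.20 CPM in every library. It fell by 1.25 on the log2 scale in low-glucose-tolerant cells (edgeR adjusted p = 0.0142), a call lost without control replicate 1 or low-glucose-tolerant replicate 3 (adjusted p up to 0.0778). By count, 2 of the 8 tested fibrillar genes rose and 3 fell in CoCl2-tolerant cells, and 0 rose and 6 fell in low-glucose-tolerant cells. Their medians on the log2 scale were -1.18 and -1.67. COL24A1, one of the 6, and COL1A2 and COL3A1, which enter the medians, did not reach the filter's cutoff in every group. Of all tested genes, 17.9% rose and 18.2% fell in CoCl2-tolerant cells, and 34.6% were called each way in low-glucose-tolerant cells.

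COL7A1 encodes the chain of the anchoring fibrils and lies on the minus strand at chr3:48564073-48595267. Its level was 436, 467 and 435 CPM in control, 638, 522 and 551 CPM in CoCl2-tolerant and 48.0, 46.9 and 47.9 CPM in low-glucose-tolerant libraries. The CoCl2-tolerant libraries were all above control and the low-glucose-tolerant ones all far below. The rise in CoCl2-tolerant cells was 1.28-fold, 0.35 ± 0.10 (SE) on the log2 scale (edgeR adjusted p = 0.016). That call was lost without control replicate 1 (adjusted p = 0.0748), control replicate 3 (adjusted p = 0.0751) or CoCl2-tolerant replicate 1 (adjusted p = 0.0595), with edgeR in each case and a log2 change of 0.27 to 0.42 over all single omissions. The fall in low-glucose-tolerant cells was 9.36-fold, a log2 change of -3.23 ± 0.11 (edgeR adjusted p = 2.78e-11). Between the tolerant lines the level differed 12.0-fold (edgeR adjusted p = 2.29e-11). The 40 tested protein-coding genes within 1 Mb had median log2 changes of 0.07 and 0.03.

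COL7A1, COL27A1 and the low-level COL11A2 were up in CoCl2-tolerant and down in low-glucose-tolerant cells. The promoter windows of COL7A1 and COL27A1 are shown for comparison. The RefSeq windows (GRCh38.p14) span 250 bases before to 50 bases after the gene's start and are printed 5′ to 3′ on the gene's strand. They come from chr3:48595280-48595579 on the minus strand and chr9:114155287-114155586 on the plus strand. Capitals mark the GC box (GGGCGG, or CCGCCC for the opposite strand) and the TATA box (TATAAA, or TTTATA for the opposite strand).
COL7A1: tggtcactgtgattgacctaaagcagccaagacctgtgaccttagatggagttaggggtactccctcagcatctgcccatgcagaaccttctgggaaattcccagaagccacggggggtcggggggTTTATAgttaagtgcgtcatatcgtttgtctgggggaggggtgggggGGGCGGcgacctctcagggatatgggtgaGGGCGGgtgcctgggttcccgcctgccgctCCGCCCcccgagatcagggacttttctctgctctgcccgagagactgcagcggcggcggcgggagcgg
COL27A1: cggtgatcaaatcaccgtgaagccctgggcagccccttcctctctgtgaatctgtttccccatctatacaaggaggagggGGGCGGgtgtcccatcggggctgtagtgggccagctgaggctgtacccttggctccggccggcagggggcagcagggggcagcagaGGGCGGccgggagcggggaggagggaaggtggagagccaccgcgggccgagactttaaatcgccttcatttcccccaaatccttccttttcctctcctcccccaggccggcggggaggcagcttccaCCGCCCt
Each printed window holds 3 GC boxes, and the COL7A1 window also holds a TATA box on the opposite strand. Neither holds the hypoxia element core ACGTG or its opposite CACGT. Neither holds a CCAAT box on either strand. The AP-1 site TGANTCA is in neither. The COL11A2 window, which is not printed, holds no GC box and none of the other motifs searched, so the GC boxes are not shared by all genes of this pattern. Among the 32 collagen genes with a RefSeq window, 56.2% had a GC box on either strand, against 45% of all 35116 windows of that length. The ACGTG core was in 15.6% of collagen windows and 21.4% of all windows, and the AP-1 site in 0% and 7.71%. These matches describe letters in the window and not bound sites.

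Among the basement membrane genes, COL4A1 and COL4A2 fell in both lines. They encode the chains of the common type IV network and are transcribed in opposite directions from neighbouring starts. COL4A1 (chr13:110148963-110307233, minus strand) held 2884, 2971 and 2924 CPM in control, 1510.4, 1435 and 1382 CPM in CoCl2-tolerant and 271, 387 and 267 CPM in low-glucose-tolerant libraries. It fell 2.03-fold and 9.49-fold (edgeR adjusted p = 5.37e-05 and 2.3e-10). COL4A2 (chr13:110305812-110513209, plus strand) held 2423, 2500.3 and 2457 CPM in control, 1818, 1612 and 1633 CPM in CoCl2-tolerant and 644, 820.2 and 714 CPM in low-glucose-tolerant libraries. Its falls were smaller, 1.46-fold and 3.39-fold (edgeR adjusted p = 0.00181 and 7.46e-09). All 3 groups were separate for both genes. Of 7 other tested protein-coding genes within 1 Mb, 0 rose and 4 fell in low-glucose-tolerant cells (median log2 change -0.52). In CoCl2-tolerant cells 3 rose and 1 fell (median 0.24). The shares over all tested genes were 34.6% each way and, in CoCl2-tolerant cells, 17.9% rising and 18.2% falling.

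The starts of this gene pair lie 127 bases apart in RefSeq. The COL4A2 window, printed on its own strand because it contains both starts, is chr13:110307034-110307333. Capitals mark a CCAAT box and a GC box.
COL4A2: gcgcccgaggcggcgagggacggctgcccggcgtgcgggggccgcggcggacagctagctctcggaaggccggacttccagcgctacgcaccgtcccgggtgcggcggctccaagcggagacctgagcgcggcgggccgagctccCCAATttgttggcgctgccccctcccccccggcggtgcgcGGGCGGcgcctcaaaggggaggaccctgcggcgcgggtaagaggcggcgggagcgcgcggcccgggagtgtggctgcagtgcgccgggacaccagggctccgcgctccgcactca
Despite the shared stretch, the ratio of the transcripts was not constant. Per kilobase, COL4A1 over COL4A2 was 1.168, 1.166 and 1.168 in control libraries, so the control libraries differed by less than 1% of the ratio. It was 0.816, 0.874 and 0.831 in CoCl2-tolerant and 0.413, 0.463 and 0.367 in low-glucose-tolerant libraries. The mean log2 ratio moved by -0.48 and -1.50 against control, with no overlap (exact two-sided permutation p = 0.10 for each, the smallest possible, and 0.125 after adjustment over 15 ratio tests). The other ratios tested were COL4A5 over COL4A6, COL4A3 over COL4A4, COL6A1 over COL6A2 and COL1A1 over COL1A2. Exons of other genes on the opposite strand cover 0.492% of the COL4A2 exon bases, and the strand setting of the counting is not given in the sources used here.

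**Figure D4:**
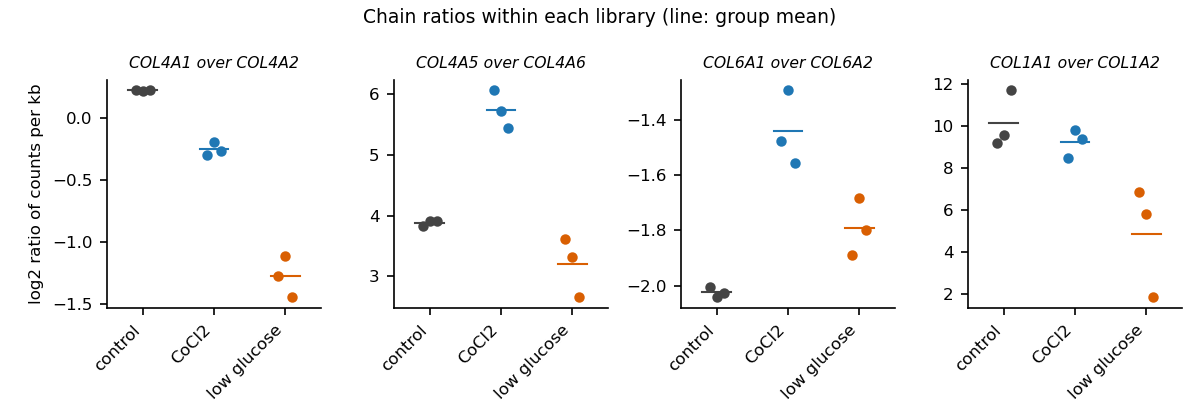
Each point is the log2 ratio of counts per kilobase of a gene pair in one library, with the group mean as a line; each panel has its own axis. COL4A1 over COL4A2 steps down from 0.22 in control to -0.25 and -1.28 in the tolerant lines, and COL1A1 over COL1A2 has one low-glucose-tolerant library far below the other two.

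The remaining network genes split. COL8A1, a chain of the hexagonal network in vessel and eye membranes, held 194, 199 and 191 CPM in control, 117, 131 and 129 CPM in CoCl2-tolerant and 49.5, 65.2 and 46.5 CPM in low-glucose-tolerant libraries. Its falls were 1.55-fold and 3.63-fold (edgeR adjusted p = 0.00136 and 1.36e-08). COL4A5, a chain of the kidney basement membrane, held 38.8, 42.1 and 37.4 CPM in control and fell to 23.2, 24.8 and 25.0 CPM in CoCl2-tolerant and 12.4, 16.7 and 12.2 CPM in low-glucose-tolerant libraries. In low-glucose-tolerant cells 1 of 11 tested protein-coding genes within 1 Mb of COL8A1 rose and 6 fell (median log2 change -0.49). Near COL4A5, 1 of 9 rose and 5 fell there (median -0.49), where 34.6% of all tested genes were called each way. COL4A6, the neighbour of COL4A5, went lowest in the other line. It held 2.60 to 2.91 CPM in control, 0.361 to 0.600 CPM in CoCl2-tolerant and 1.05 to 2.03 CPM in low-glucose-tolerant libraries, with log2 changes of -2.51 ± 0.28 and -0.80 ± 0.23 (SE). Per kilobase, COL4A5 exceeded COL4A6 by 14.1, 15.1 and 15.0-fold in control, by 67.0, 52.7 and 43.4-fold in CoCl2-tolerant and by 12.3, 9.94 and 6.28-fold in low-glucose-tolerant libraries.

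COL8A2, the partner of COL8A1, was lowest in CoCl2-tolerant cells. Its counts summed over 3 libraries were 308 in control, 44 in CoCl2-tolerant and 365 in low-glucose-tolerant cells. The log2 change was -2.57 ± 0.22 (SE) in CoCl2-tolerant cells (edgeR adjusted p = 1.07e-06) and -2.97 ± 0.22 for CoCl2-tolerant against low-glucose-tolerant cells. The small rise in low-glucose-tolerant cells, 0.41 on the log2 scale, passed narrowly (edgeR adjusted p = 0.0458) and was lost when any control library, CoCl2-tolerant replicate 3 or low-glucose-tolerant replicate 2 or 3 was left out (adjusted p up to 0.126), and with DESeq2 (adjusted p = 0.0796). COL4A3 fell by 0.79 on the log2 scale in CoCl2-tolerant cells (edgeR adjusted p = 0.0288). That call was lost without control replicate 1 or 3 or CoCl2-tolerant replicate 1 or 2 (adjusted p up to 0.114). COL4A4, at 3.13 to 4.35 CPM over all libraries, passed in neither comparison over all 9 libraries. Its CoCl2-tolerant difference of -0.35 passed with only the groups compared (edgeR adjusted p = 0.038) and without low-glucose-tolerant replicate 2 (0.0456). The low-glucose-tolerant difference passed with library totals as the only scaling (edgeR adjusted p = 0.0314). By count, 0 network genes rose and 7 of 8 fell in CoCl2-tolerant cells, and 1 rose and 5 fell in low-glucose-tolerant cells, with median log2 changes of -0.74 and -1.16. The shares of all tested genes were 17.9% rising and 18.2% falling in CoCl2-tolerant cells, and 34.6% each way in low-glucose-tolerant cells. Fibrillar, network and anchoring genes are given side by side, and the difference between classes was not tested.

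Fibril-associated collagens divided into falling and rising members. COL12A1, which binds type I fibrils, held 198, 216 and 197 CPM in control, 90.5, 94.7 and 88.6 CPM in CoCl2-tolerant and 29.8, 53.1 and 27.2 CPM in low-glucose-tolerant libraries. It fell 2.23-fold and 5.55-fold (edgeR adjusted p = 0.000324 and 6.55e-08). COL14A1, a close relative of COL12A1, measured 29.3, 30.5 and 27.6 CPM in control and 8.19, 7.25 and 7.84 CPM in CoCl2-tolerant libraries. In low-glucose-tolerant libraries it held 34.1, 42.5 and 33.8 CPM, all above control. It fell 3.76-fold in CoCl2-tolerant cells (edgeR adjusted p = 9.41e-08), and was 4.74-fold higher in low-glucose-tolerant than in CoCl2-tolerant cells (edgeR adjusted p = 3.1e-09). Its 1.26-fold rise over control in low-glucose-tolerant cells (edgeR adjusted p = 0.0208) was lost without control replicate 1, control replicate 3 or low-glucose-tolerant replicate 2 (adjusted p up to 0.0895), and with library totals as the only scaling (adjusted p = 0.102).

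COL16A1 measured 9.16, 8.85 and 8.45 CPM in control, 11.2, 8.79 and 9.57 CPM in CoCl2-tolerant and 19.6, 19.1 and 22.8 CPM in low-glucose-tolerant libraries. Only the low-glucose-tolerant libraries stood apart, 2.33-fold above control (edgeR adjusted p = 1.16e-06). COL20A1 had 288 counts over the 3 control libraries, 59 in CoCl2-tolerant and 4 in low-glucose-tolerant cells, with all 4 in replicate 2. The control level exceeded the low-glucose-tolerant level 64.5-fold, with a 95% interval of 24.9 to 238 for counting error only. COL9A2, whose product covers cartilage fibrils, had 102, 18 and 45 counts. It fell by 2.25 on the log2 scale in CoCl2-tolerant cells (edgeR adjusted p = 0.000896) and by 1.01 in low-glucose-tolerant cells (edgeR adjusted p = 0.0198). The second call was lost without control replicate 2 or 3 or low-glucose-tolerant replicate 2 (adjusted p up to 0.0834).

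Beaded filament, multiplexin and transmembrane genes did not fall. COL6A1, a type VI chain that many cells place around themselves, held 47.9, 45.2 and 48.2 CPM in control, 80.9, 70.9 and 66.2 CPM in CoCl2-tolerant and 67.4, 81.2 and 83.8 CPM in low-glucose-tolerant libraries. It rose 1.54-fold and 1.65-fold (edgeR adjusted p = 0.000939 and 7.54e-05). COL6A2, its partner, held 157, 152 and 160.1 CPM in control, 184, 142 and 159 CPM in CoCl2-tolerant and 204, 213 and 238 CPM in low-glucose-tolerant libraries. It rose 1.40-fold in low-glucose-tolerant cells alone among the comparisons with control (edgeR adjusted p = 0.00162), and the log2 change was -0.43 for CoCl2-tolerant against low-glucose-tolerant cells (edgeR adjusted p = 0.00396). COL6A1 over COL6A2 per kilobase was 0.249, 0.243 and 0.246 in control, 0.359, 0.408 and 0.340 in CoCl2-tolerant and 0.270, 0.311 and 0.287 in low-glucose-tolerant libraries. The remaining chain gene, COL6A3, was at 1.30 to 4.02 CPM and passed in neither comparison.

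COL18A1, a basement membrane multiplexin, held 337, 377 and 336 CPM in control, 417, 325 and 371 CPM in CoCl2-tolerant and 447, 498 and 524 CPM in low-glucose-tolerant libraries. It rose 1.40-fold in low-glucose-tolerant cells (edgeR adjusted p = 0.00186). Exons of other genes on the opposite strand, chiefly SLC19A1, cover 16.4% of its exon bases, so part of this count could belong to another gene if strand was not used. COL17A1, the hemidesmosome collagen of epithelial cells, had 0.705 to 1.27 CPM in control, 0.989 to 1.32 CPM in CoCl2-tolerant and 2.38 to 3.26 CPM in low-glucose-tolerant libraries. Its rise was 2.84-fold (edgeR adjusted p = 6.51e-05). COL13A1, a transmembrane collagen of cell contacts, held 11.8, 13.2 and 14.2 CPM in control, 17.6, 14.9 and 17.8 CPM in CoCl2-tolerant and 17.6, 14.4 and 18.3 CPM in low-glucose-tolerant libraries. Both rises were 1.28-fold and close to the threshold (edgeR adjusted p = 0.0475 and 0.0257). The first was lost without any one of the control libraries or CoCl2-tolerant replicate 1 or 3 (adjusted p up to 0.2), and the second without control replicate 1 or 2 or low-glucose-tolerant replicate 1 or 3 (adjusted p up to 0.116). With a filter of 5 CPM both were lost (edgeR adjusted p = 0.054 and 0.0916).

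Low-glucose-tolerant replicate 2 was the highest of its group for 8 of the 10 genes with at least 5 CPM in control or low-glucose-tolerant cells that fell there. COL1A1 and COL7A1 were the exceptions. Among all tested genes of that kind, 42.9% were highest in that library.

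The machinery that modifies and exports collagen was listed separately from the collagen genes. Of 14 genes for proline and lysine modification in the ER, 6 rose and 3 fell in CoCl2-tolerant cells, and 6 rose and 6 fell in low-glucose-tolerant cells, with median log2 changes of 0.11 and -0.18. Over all tested genes, 17.9% rose and 18.2% fell in CoCl2-tolerant cells, and 34.6% were called each way in low-glucose-tolerant cells. P4HA1 and P4HA2 encode catalytic subunits of prolyl 4-hydroxylase. P4HA2 held 111, 114 and 108 CPM in control, 313, 246 and 253 CPM in CoCl2-tolerant and 92.3, 106 and 109 CPM in low-glucose-tolerant libraries, a rise by 1.29 on the log2 scale in CoCl2-tolerant cells (edgeR adjusted p = 1.68e-06). P4HA1 rose there by 0.76 (edgeR adjusted p = 0.000584). Its difference in low-glucose-tolerant cells was -0.35 (edgeR adjusted p = 0.0307), a call lost without any one of the control libraries or low-glucose-tolerant replicate 2 or 3 (adjusted p up to 0.11).

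PLOD2, the lysyl hydroxylase of the chain ends that later form crosslinks, moved like COL7A1. It held 143, 129 and 128 CPM in control, 181, 233 and 228 CPM in CoCl2-tolerant and 34.8, 25.7 and 23.2 CPM in low-glucose-tolerant libraries, with log2 changes of 0.68 ± 0.14 and -2.26 ± 0.15 (SE). PLOD3, a lysyl hydroxylase that also adds sugars, rose by 0.76 and 1.22 on the log2 scale. CRTAP and PPIB, which work together in prolyl 3-hydroxylation, rose by 1.63 and 1.44 in low-glucose-tolerant cells (edgeR adjusted p = 4.81e-09 and 1.52e-07). CRTAP also rose by 0.34 in CoCl2-tolerant cells, and PPIB did not pass there. P3H3 fell by 0.80 in CoCl2-tolerant cells and rose by 0.70 in low-glucose-tolerant cells (edgeR adjusted p = 0.000949 and 0.000696). COLGALT2, a collagen galactosyltransferase, was lower by 2.65 in CoCl2-tolerant than in low-glucose-tolerant cells. P4HA3, a further prolyl 4-hydroxylase subunit at 4.84 to 5.53 CPM in control, fell by 0.76 in CoCl2-tolerant cells. Its log2 change in low-glucose-tolerant cells was -0.99 (edgeR adjusted p = 0.000288).

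Of 10 folding and export genes, 1 rose and 4 fell in CoCl2-tolerant cells and 6 rose and 2 fell in low-glucose-tolerant cells, with medians of -0.30 and 0.59 on the log2 scale. Among all tested genes, 17.9% rose and 18.2% fell in the first comparison, and 34.6% were called each way in the second. SERPINH1 (HSP47), the chaperone that binds only folded collagen, held 139, 147 and 141 CPM in control, 166, 120.1 and 123 CPM in CoCl2-tolerant and 119, 142 and 159 CPM in low-glucose-tolerant libraries. Its log2 differences were -0.07 ± 0.14 and -0.02 ± 0.14 (SE), and it passed in neither comparison (edgeR adjusted p = 0.736 and 0.883). CREB3L1, an ER-anchored transcription factor that drives type I collagen genes in bone, fell by 1.84 in CoCl2-tolerant cells (edgeR adjusted p = 4.49e-05), from 4.62 to 6.61 CPM to 1.24 to 2.12 CPM. In low-glucose-tolerant cells its log2 change was -0.63 (edgeR adjusted p = 0.0177), with libraries that overlapped control. SEC23A, a coat protein of the vesicles that leave the ER, fell by 0.80 and 0.92, and SEC24D of the same coat fell by 0.71 in CoCl2-tolerant cells. SEC24D rose by 0.48 in low-glucose-tolerant cells (edgeR adjusted p = 0.00433). MIA2, TMEM38B and KLHL12, which act in procollagen export or ER calcium, rose by 1.38, 0.87 and 0.84 in low-glucose-tolerant cells. In CoCl2-tolerant cells KLHL12 rose by 0.35, and MIA2 and TMEM38B did not pass. FKBP10 and FKBP14, prolyl isomerases of the ER, were lower by 1.11 and 1.08 in CoCl2-tolerant than in low-glucose-tolerant cells.

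Outside the cell, propeptides are cut off and lysyl oxidases crosslink the fibrils. Of 11 tested genes for these steps, 4 rose and 5 fell in CoCl2-tolerant cells and 3 rose and 6 fell in low-glucose-tolerant cells, with medians of -0.43 and -1.27 on the log2 scale. The all-gene shares were 17.9% rising and 18.2% falling in CoCl2-tolerant cells, and 34.6% each way in low-glucose-tolerant cells. LOX, the founding lysyl oxidase, held 176, 171 and 165 CPM in control, 457, 569 and 551 CPM in CoCl2-tolerant and 246, 225 and 194 CPM in low-glucose-tolerant libraries. It rose by 1.62 in CoCl2-tolerant cells (edgeR adjusted p = 2.53e-07) and by 0.38 in low-glucose-tolerant cells (edgeR adjusted p = 0.0108), the latter lost with library totals as the only scaling (adjusted p = 0.067). LOXL2, a related oxidase of type IV collagen, fell by 1.82 in low-glucose-tolerant cells (edgeR adjusted p = 2.41e-09), from 974 to 986 CPM to 261 to 290.0 CPM. In CoCl2-tolerant cells it rose by 0.28 (edgeR adjusted p = 0.0426). LOXL4 fell by 1.03 in CoCl2-tolerant cells and had a log2 change of -1.27 in low-glucose-tolerant cells (edgeR adjusted p = 3.51e-07). The procollagen N-proteinases ADAMTS3 and ADAMTS14 fell by 1.35 and 1.33 in CoCl2-tolerant cells with log2 changes of -1.97 and -2.69 in low-glucose-tolerant cells. TLL2, of the C-proteinase family, fell by 1.66 in low-glucose-tolerant cells and rose by 0.44 in CoCl2-tolerant cells (edgeR adjusted p = 2.99e-09 and 0.00262).

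Among 8 collagen receptors, 0 rose and 5 fell in CoCl2-tolerant cells, and 3 rose and 4 fell in low-glucose-tolerant cells, with medians of -0.62 and 0.13 on the log2 scale. The shares over all tested genes were 17.9% rising and 18.2% falling in CoCl2-tolerant cells, and 34.6% each way in low-glucose-tolerant cells. ITGA11, the integrin chain that binds fibrillar collagen, fell by 2.74 and 1.28 (edgeR adjusted p = 7.98e-08 and 9.78e-06), and ITGA1, the chain that prefers type IV, by 1.09 and 1.95. MRC2, which takes up collagen for breakdown, fell by 0.73 and 1.05. DDR1, a receptor kinase for collagen, fell by 0.66 in CoCl2-tolerant cells and rose by 0.55 in low-glucose-tolerant cells (edgeR adjusted p = 0.000718 and 0.000881). ITGA2 fell by 0.58 in CoCl2-tolerant cells and rose by 0.81 in low-glucose-tolerant cells (edgeR adjusted p = 0.0408 and 0.00232). Of 7 tested degradation genes, 1 rose and 2 fell in CoCl2-tolerant cells and 3 rose and 1 fell in low-glucose-tolerant cells, with medians of 0.04 and 0.63. MMP14, a membrane-bound protease that cuts fibrillar collagen, held 146, 159 and 153 CPM in control and 477, 502 and 540.0 CPM in low-glucose-tolerant libraries, a rise by 1.73 (edgeR adjusted p = 1.04e-08). In CoCl2-tolerant cells it fell by 0.42 (edgeR adjusted p = 0.0103). That fall was lost without control replicate 2 or CoCl2-tolerant replicate 2 or 3 (adjusted p up to 0.0563). PEPD, which splits proline dipeptides released from collagen, rose by 0.63 in low-glucose-tolerant cells, and CTSK, a collagen-cutting cathepsin, fell by 0.46 there. PEPD also rose by 0.46 in CoCl2-tolerant cells. That call was lost without control replicate 1 or 3 or CoCl2-tolerant replicate 1 (edgeR adjusted p up to 0.0671). The same shares of all tested genes are the background for the degradation genes, and no list was tested against them.

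**Figure D5:**
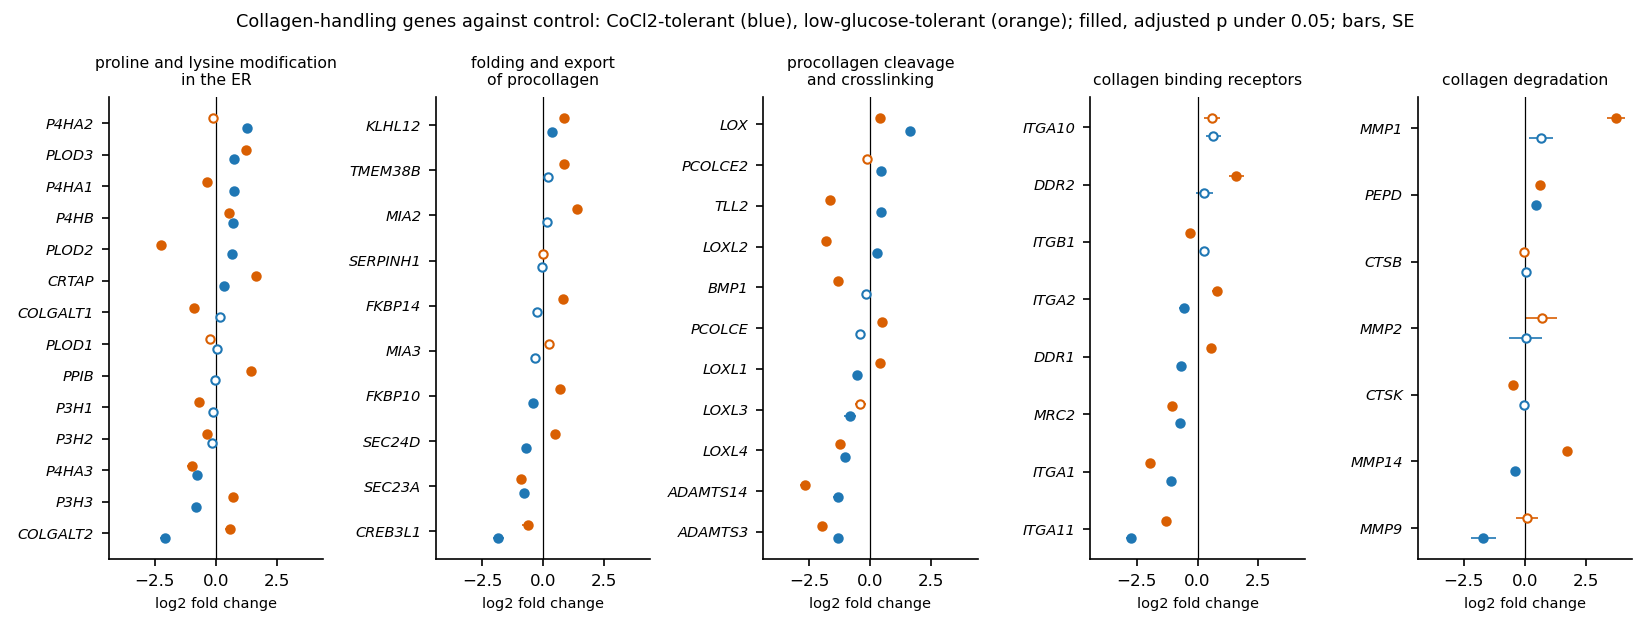
Points give the log2 fold change against control, with its standard error, of the tested genes that modify, export, crosslink, bind or degrade collagen; blue is CoCl2-tolerant, orange low-glucose-tolerant, and filled points passed the test. LOX stands at 1.62 and 0.38, PLOD2 at 0.68 and -2.26 and SERPINH1 near 0 in both.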

How the data were processed

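RNA of 9 HCT-15 libraries, 3 per group, was sequenced as sheared mRNA on an Illumina NovaSeq, per the labels' protocols. The deposited tables hold raw read counts per gene; the authors used featureCounts, DESeq2 and genome build GRCh38, per the submitters' processing notes, which give no versions. No aligner, annotation release or strand option is named there or in the labels (not given in the sources used here). Libraries were grouped by the treatment label.

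Of 36018 genes, 35938 had a symbol; positions, exon overlaps and transcript lengths came from GENCODE release 29, and promoter windows from RefSeq (GRCh38.p14). The members and gene lists were chosen with earlier results of these data known, so no list is independent evidence. All 28 tested members are named. Values per library are given for COL1A1, COL7A1 and members with an adjusted p under 0.05 in any comparison and at least 5 CPM in the higher group. In each other list, up to 4 genes per comparison with the largest change under the same limits are eligible, and P4HA1, PLOD2, SERPINH1 and LOX are named whatever their values; not every eligible gene is described. Lower-expressed members' counts and CPM ranges were added after their values were seen.

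The 3 comparisons used edgeR 4.0.16 in R 4.3.3: filterByExpr by group, trimmed-mean (TMM) scaling (factors 0.922 to 1.04) and a quasi-likelihood F test on all 9 libraries without covariates (biological coefficient of variation 12.6%), adjusted by Benjamini-Hochberg over 17902 genes. CPM use the library total times its TMM factor. Shares and ratios of single values had exact permutation tests. Intervals are exact 95% intervals for counting error only.

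On simulated counts of 17902 genes, the test found 62.7% of 1.5-fold, 94% of 2-fold and 100% of 4-fold changes for CoCl2-tolerant against control, and 65.7%, 94% and 100% for low-glucose-tolerant against control. Changes were planted in 200 genes only, all above a minimum mean count, so these rates do not cover the low-count members. In the data 36.1% and 69.2% of tested genes were called in these comparisons, far more than were planted. All replicate pairs exceeded counting noise (chi-squared per degree of freedom 2.31 to 74.1), so none was treated as a duplicate. Alternatives left out each library, fitted only the groups compared, added a replicate block, used DESeq2 1.42.0 or its size factors, scaled by library totals alone, dropped the filter or raised it to 5 CPM. The brefeldin A-tolerant line was not analysed here.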

Additional observations from a re-analysis of the deposited data

Results flagged for a closer look

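For 5 of the 28 tested collagen genes the tolerant lines moved in opposite directions from control in the test over all 9 libraries. Among all tested genes, 2.49% rose in CoCl2-tolerant and fell in low-glucose-tolerant cells, and 2.55% did the reverse. The 5 were picked by this pattern, so a difference between the lines largely follows from the choice and is no further support. That difference passed edgeR's quasi-likelihood test for each gene. On the log2 scale, CoCl2-tolerant against low-glucose-tolerant, it was 3.58 for COL7A1, 2.57 for COL27A1 and 1.85 for COL11A2, which were higher in CoCl2-tolerant cells in 3 of 3 libraries. It was -2.25 for COL14A1 and -2.97 for COL8A2, which were higher in low-glucose-tolerant cells in 3 of 3 libraries. The edgeR adjusted p was 2.29e-11, 1.99e-10, 2.2e-06, 3.1e-09 and 3.62e-08 in that order, and all 5 calls between the lines were kept under every alternative that gave a value (the filter of 5 CPM leaves COL8A2 out). The rise from control was less firm for 3 of the 5. For COL7A1 in CoCl2-tolerant cells it was lost without control replicate 1, control replicate 3 or CoCl2-tolerant replicate 1 (edgeR adjusted p up to 0.0751). For COL14A1 in low-glucose-tolerant cells it was lost without control replicate 1, control replicate 3 or low-glucose-tolerant replicate 2 (edgeR adjusted p up to 0.0895), with library totals in place of TMM (0.102) and with the filter of 5 CPM (0.0811). For COL8A2 in low-glucose-tolerant cells it was lost with 6 of the 9 libraries left out in turn (edgeR adjusted p up to 0.126) and in 5 other settings, among them DESeq2 (0.0796) and library totals (0.12).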

How the results depend on the processing

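Of 63 calls on single collagen genes over the 3 comparisons, 54 kept their direction and call under every alternative that gave them a value. The 9 others are COL7A1, COL4A3 and COL13A1 in CoCl2-tolerant cells, COL8A2, COL9A2, COL13A1, COL14A1 and COL24A1 in low-glucose-tolerant cells, and COL9A2 between the lines (edgeR adjusted p = 0.031, up to 0.146 with one library left out). Apart from left-out libraries, calls were lost for COL8A2 in low-glucose-tolerant cells (adjusted p = 0.0796 with DESeq2, 0.12 with library totals, 0.0746 without a filter, 0.0512 with only the groups compared, 0.067 with the replicate block), COL13A1 in CoCl2-tolerant cells (0.0703 without a filter, 0.0589 with the block) and in low-glucose-tolerant cells (0.0914 with library totals), and COL14A1 there (0.0811 with a filter of 5 CPM). The causes were not tested.

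A filter of 5 CPM in 3 libraries, which tests fewer genes, lowered the falls in CoCl2-tolerant cells to 9, the rises in low-glucose-tolerant cells to 4 and the genes lower in CoCl2-tolerant than in low-glucose-tolerant cells to 4. Library totals without TMM moved the median of all genes to -0.11 in low-glucose-tolerant cells and lowered the rises there to 5; LOX lost its call there (adjusted p = 0.067). With one library left out, rises in CoCl2-tolerant cells ranged from 3 to 5, rises in low-glucose-tolerant cells from 5 to 8, and the log2 change of COL7A1 in CoCl2-tolerant cells from 0.27 to 0.42.

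Differences in the collagen share, in percentage points, moved without COL1A1 to -0.239 in CoCl2-tolerant and -0.527 in low-glucose-tolerant cells against control, and to 0.288 between the lines. Without mitochondrial genes in the total, of which control libraries held most, the first became -0.466 and the second -0.796; with TMM factors the second was -0.683.

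Changes of sign occurred among differences that did not pass. With one library left out the log2 difference ranged from -2.84 to 0.76 for COL1A2 and -1.71 to 0.92 for COL3A1 in low-glucose-tolerant cells. In CoCl2-tolerant cells it ranged from -0.05 to 0.14 for COL6A2, -0.29 to 0.17 for COL6A3 and -0.23 to 0.02 for SERPINH1, and SERPINH1 ranged from -0.12 to 0.09 in low-glucose-tolerant cells. With a block for the replicate number, COL1A2 was -0.35 in low-glucose-tolerant cells. Libraries that share a number correlated at -0.26 to 0.124 in their deviations from group means, so a shared number was not read as a pairing. Under the block 6091 of all genes were called in CoCl2-tolerant cells in place of 6459. Genes under 5 CPM are limited by depth: 3 counts correspond to 0.0918 to 0.119 CPM.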

Other observations

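COL1A2 and COL3A1 were not alone in standing out in low-glucose-tolerant replicate 3. COL6A3 had 111 counts there against 62 and 77 in the other low-glucose-tolerant libraries. MMP2, a gelatinase, had 1.45 CPM against 0.238 and 0.206, and MMP9, another gelatinase, 4.31 CPM against 1.05 and 1.44. The fibroblast proteoglycan gene DCN did not follow, with 0.612, 0.685 and 0.579 CPM. These genes were picked after their values were seen.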
